A study of Mus musculus with 12 samples.

Results

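Thyroid hormone acts in the brain only after it has been taken up, activated and bound by its receptors, and 6 genes were followed along that route: Dio2, which activates the hormone, Crym, which binds it in the cytosol, the receptor genes Thra and Thrb, and the response genes Hr and Klf9. They were chosen by name, for these roles but with earlier results of these data known, and are 6 of the 54752 genes in the count table. Of these, 5 passed the low-count filter and were tested. The libraries came from the cerebellar cortex, dissected without the cerebellar nuclei, of 12 wild-type (WT) male F1 hybrid C57BL6J/FVB mice aged 12 weeks, with 4 mice on each of 3 diets. Mice fed ad libitum (AL) had free access to food, and mice on dietary restriction (DR) had their food reduced stepwise, received it just before the dark period and were dissected early in the dark period without that day's meal, so that the DR values come from fasted animals. The composition and timing of the ketogenic diet (KD) are not given in the sources used here. Mice on AL and DR were selected for sequencing by the quality of their RNA, and each library is 1 mouse (AL 1 to AL 4, and so on), so that p-values measure the spread between mice.

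The thyroid gland secretes mainly the prohormone T4, and in the brain the type II deiodinase (D2), made by astrocytes and tanycytes, removes an iodine to give T3, the form that binds the receptors with high affinity. Thyroid hormone receptors sit on DNA as partners of retinoid X receptors, where they hold corepressors without T3 and recruit coactivators with it. In the developing cerebellum T3 drives Purkinje cell dendrite growth, granule cell migration and myelination, and Hr and Klf9 are among its best known direct target genes. Low thyroid hormone raises D2 in the brain, in part because T4 marks the D2 protein for degradation.

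Between 31712084 and 40798644 reads were counted per library, and no pair of the 18 on the same diet looked like 1 library deposited under 2 names (chi-square per gene, averaged over genes, of 4.60 to 10.5), so all 12 were kept as separate samples. Markers of granule cells (summed 6472.5 to 7028 CPM, a read count scaled to a common library size), Bergmann glia and astrocytes (2713 to 3190 CPM) and Purkinje cells (1966 to 2440 CPM) were high in every library, as the label cerebellar cortex requires. The 7 markers of the cerebellar nuclei and brainstem summed to 44.9 to 54.1 CPM, most of it Slc6a5, the glycine transporter gene that cerebellar Golgi cells also use (44.8 to 46.6 CPM on average), and 4 averaged under 0.1 CPM on each diet. By edgeR's quasi-likelihood test on all genes that passed the filter, adjusted after Benjamini and Hochberg, 3.06% of genes were called (adjusted p under 0.05) in DR against AL (1.32% higher and 1.74% lower), 0% in KD against AL and 4.94% in KD against DR (2.43% higher and 2.51% lower). The last comparison reuses the DR mice of the first and KD against AL reuses the AL mice, so the 3 comparisons are not independent of each other.

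Dio2 fell and Hr rose on DR, and no member was called on KD against AL. Of the 5 members tested, 1 was higher and 1 lower in DR against AL (background 3.06%, of which 1.32% higher and 1.74% lower), 0 in KD against AL (background 0%, with 928 genes at an unadjusted p under 0.05, 10 genes called by DESeq2 and 18 by edgeR's exact test) and 1 was lower in KD against DR (background 4.94%, of which 2.43% higher and 2.51% lower). The median log2 fold change of the 5 members was 0.07, -0.06 and -0.13 in these comparisons, against 0.0036, 0.0002 and -0.0024 over all genes tested. The same 2 members in DR against AL, none in KD against AL and the same 1 in KD against DR had no overlap between the diets, against 10.9%, 2.96% and 11.8% of all genes tested. Because earlier results were known when the members were chosen, these counts beside the background are a description and not a test.

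**Figure D1:**
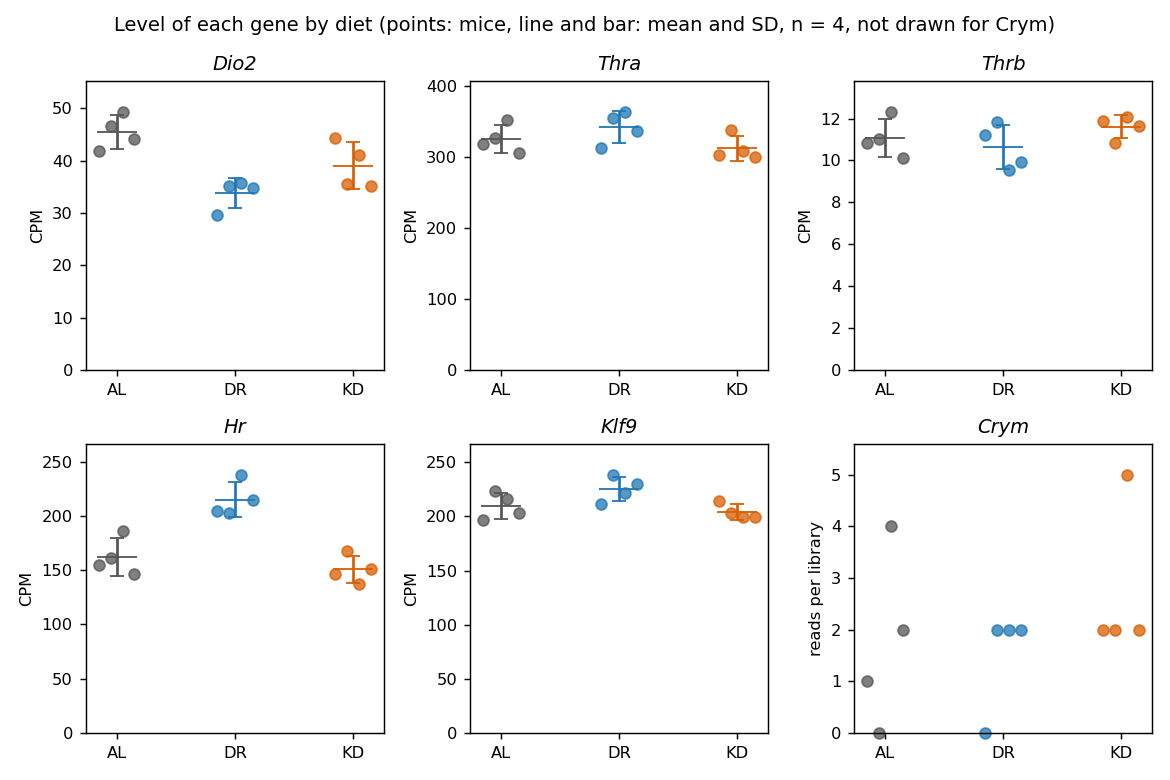
Level of each of the 6 genes in each mouse (vertical axes in CPM, in reads per library for Crym), by diet on the horizontal axis, with the mean and SD of 4 mice. The DR points of Dio2 lie below and those of Hr above all AL points, whereas the diets overlap for Thra, Thrb and Klf9, and no library has over 5 reads of Crym.

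Dio2 (ENSMUSG00000007682.6, chromosome 12 of GRCm38.p6, 90724552 to 90738438, minus strand) encodes D2, a selenoprotein: its message holds in-frame TGA codons that are read as selenocysteine and not as stops. The coding sequence of the annotation has 266 codons, of which 2 are in-frame TGA codons in exon 2, both annotated as selenocysteine. They are shown from GRCm38 in coding direction with the TGA codon in capitals, because the codon at position 130 encodes the catalytic residue and reading through both ties the protein to the selenoprotein machinery whose genes are given further on.
Dio2 codon 130, chr12:90729793-90729855, minus strand: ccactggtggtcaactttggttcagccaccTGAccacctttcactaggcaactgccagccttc
Dio2 codon 263, chr12:90729415-90729456, minus strand: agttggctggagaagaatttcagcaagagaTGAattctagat

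Transcription of Dio2 is known to respond to cyclic AMP. The 250 bases before its RefSeq start were searched on both strands for 4 motifs: the cAMP response element TGACGTCA, the nuclear receptor half-site AGGTCA, the classical thyroid hormone response element (that half-site repeated on the same strand after 4 bases, so that it also counts as half-sites) and the glucocorticoid response element (AGAACA, 3 bases of any kind and TGTTCT). Dio2 held 1 cAMP response element and none of the others. That element is found in 1.55% of 32851 RefSeq promoter windows of this length, the half-site in 14%, the repeat in 0.0152% and the glucocorticoid response element in 0.00913%. The RefSeq start lies 600 bases upstream of the end of Dio2 in the count table. Wsb1, the only other gene of D2 turnover that was called, also held 1 cAMP response element in 1 of its 2 RefSeq promoters. Both windows are shown 5′ to 3′ from RefSeq (GRCm38.p6) with the element in capitals. A match describes the letters only and does not show that a factor binds there.
Dio2, chr12:90739039-90739288, minus strand: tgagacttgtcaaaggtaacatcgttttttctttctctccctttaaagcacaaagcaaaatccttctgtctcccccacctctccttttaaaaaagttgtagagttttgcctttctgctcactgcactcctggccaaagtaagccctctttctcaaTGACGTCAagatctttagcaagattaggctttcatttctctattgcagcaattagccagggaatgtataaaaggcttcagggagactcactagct
Wsb1, chr11:79254696-79254945, minus strand: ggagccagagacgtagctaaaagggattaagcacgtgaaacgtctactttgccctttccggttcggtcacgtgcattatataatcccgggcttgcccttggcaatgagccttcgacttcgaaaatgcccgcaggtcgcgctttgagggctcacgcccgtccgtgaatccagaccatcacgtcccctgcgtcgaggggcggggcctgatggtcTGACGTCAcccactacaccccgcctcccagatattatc

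In the AL mice Dio2 was at 41.8, 46.7, 49.3 and 44.2 CPM, and in the DR mice at 29.7, 35.3, 35.8 and 34.9 CPM. All 4 DR mice lay below all 4 AL mice, and DR 1, at 29.7 CPM, lay apart from the other 3. The mean of the AL mice was 45.5 ± 3.23 CPM, and that of the DR mice 33.9 ± 2.84 CPM (SD, n = 4 each). Dio2 fell by 25.5%. On the log2 scale the change was -0.42 (SE 0.07, 95% interval -0.57 to -0.28, edgeR adjusted p = 0.00451 over all genes tested). Without DR 1 the log2 fold change was -0.36 and the gene was still called.

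The KD mice held 44.3, 35.6, 41.1 and 35.1 CPM of Dio2, so that 2 of them lay among the AL values or just below and 2 among the DR values. Their mean of 39.1 ± 4.46 CPM (SD, n = 4) stood between the other diets. The log2 fold change of KD against AL was -0.22 (95% interval -0.37 to -0.06, edgeR adjusted p = 0.981), and that of KD against DR was 0.20 (95% interval 0.04 to 0.37, adjusted p = 0.154). Neither passed the threshold, and both intervals leave out 0, so Dio2 on KD was separated neither from AL nor from DR after adjustment over all genes.

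D2 in the brain is a product of astrocytes, and in a bulk library fewer cells of a type and less RNA per cell cannot be told apart. The 11 markers of Bergmann glia and astrocytes summed to 3061 to 3190 CPM on AL, 2713 to 2844 CPM on DR and 2946 to 3095 CPM on KD. Their mean log2 CPM was 0.24 lower on DR than on AL, with no overlap, which gave the smallest p that a two-sided exact permutation test of 4 against 4 mice allows (0.0286, 0.129 after adjustment over the 9 single-value tests). All 11 had a negative log2 fold change on DR and 4 fell (background 1.74% lower), with log2 fold changes of -0.58 for Fabp7, -0.52 for the water channel gene Aqp4, -0.47 for Hopx and -0.24 for the gap junction gene Gja1. The markers were not lower to the same degree, with a median of -0.16. Slc1a2 (-0.05), Aldh1l1 (-0.08), Gdf10 (-0.08) and Gfap (-0.09) changed least and were not called. The part of the astrocyte markers in the change of Dio2 was not tested beyond the ratio that follows.

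Relative to the mean of these markers, Dio2 stood at -1.59 ± 0.098 on the log2 scale on AL, -1.77 ± 0.172 on DR and -1.80 ± 0.133 on KD (SD, n = 4 each). The difference between DR and AL narrowed from -0.42 to -0.18 (exact permutation p = 0.0857, 0.154 adjusted over the 9 tests). The size of the narrowing depended on the setting, as 3 alternatives gave a difference of -0.26 to -0.18 (exact permutation p 0.0571 to 0.0857). It was -0.10 without DR 1 and -0.24 without DR 3. KD lay 0.21 below AL on this scale (exact permutation p = 0.0857, 0.154 adjusted), and KD and DR differed by -0.02 (exact permutation p = 0.8). Without KD 1 the relative difference of KD from AL was -0.26 (exact permutation p = 0.0286, the smallest possible, unadjusted). Of the 8 omissions only this 1 was under 0.05, with p up to 0.143 in the rest. KD 1 had the highest value of the KD mice, so no conclusion is drawn from that p. On KD the markers themselves were near AL, with a difference of -0.02 (exact permutation p = 0.429).

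**Figure D2:**
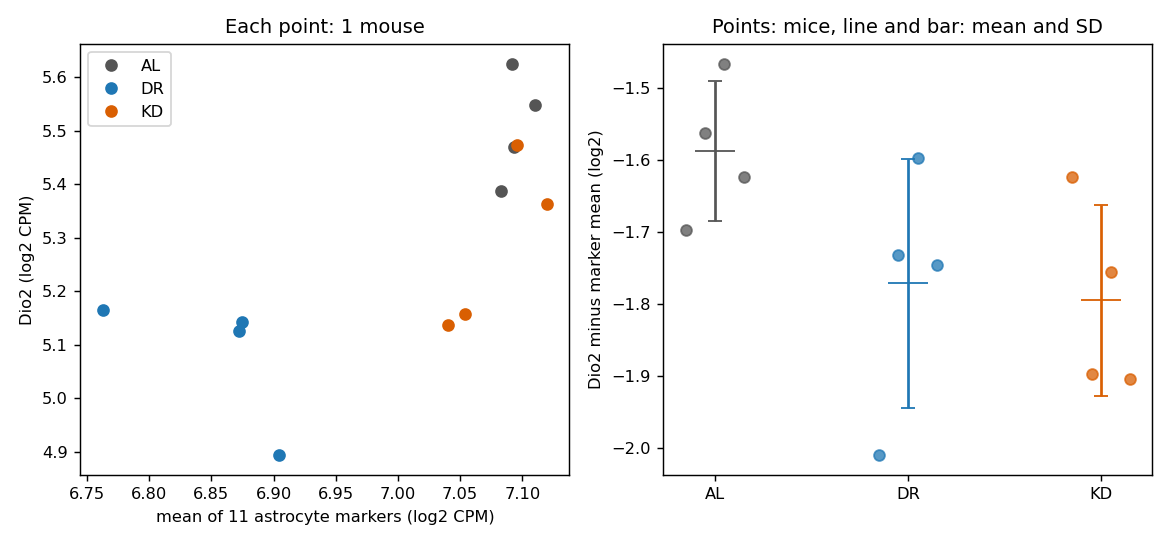
Left, log2 CPM of Dio2 (vertical) against the mean log2 CPM of 11 astrocyte markers (horizontal) in each of 12 mice. Right, Dio2 minus that mean (log2) by diet, with the mean and SD of 4 mice; the 4 DR mice stand apart on the marker axis, and on the right the 3 diets overlap, at -1.59 on AL, -1.77 on DR and -1.80 on KD.

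The other deiodinases left almost no reads. Dio1, the deiodinase of liver and kidney, and Dio3, which inactivates T4 and T3, had at most 5 reads in any library and 16 and 17 reads in all, too few to be tested, so that a difference between diets was not detectable at this depth. Dio2 was therefore the only deiodinase message measured with any precision, at 1130 to 1810 reads per library on AL and DR.

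The genes that control the D2 protein and selenoprotein synthesis showed a single call. Of 9 genes on this list, 1 rose and 0 fell on DR (background 1.32% higher and 1.74% lower), none was called on KD against AL and none on KD against DR, with median log2 fold changes of -0.0036, 0.06 and -0.01. Wsb1, which encodes the ubiquitin ligase adaptor that recognises D2 and leads to its degradation, was at 115, 121, 116 and 112 CPM on AL and 143, 152, 130 and 133 CPM on DR. All DR mice were above all AL mice, and Wsb1 rose by a log2 fold change of 0.27 (SE 0.05, edgeR adjusted p = 0.0133), the opposite direction to Dio2. The call was lost without AL 4 (log2 fold change 0.25, adjusted p = 0.0543). On KD Wsb1 was at 134, 122, 124 and 128 CPM, with a log2 fold change of 0.14 against AL (adjusted p = 0.981) and -0.13 against DR (adjusted p = 0.166). The deubiquitinase genes Usp33 and Usp20, whose products can rescue D2, had log2 fold changes of -0.03 and -0.12 on DR, and Secisbp2, which encodes the protein that recodes the TGA codon, 0.03; none was called.

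Transport of the hormone into cells was not called as changed at any step. Of 6 transporter genes, 0 rose and 0 fell in each of the 3 comparisons, with median log2 fold changes of -0.03, -0.0092 and 0.01. Slco1c1, the T4 transporter of the blood-brain barrier and astrocytes, was at 29.3 ± 1.80 CPM on AL, 29.4 ± 1.80 CPM on DR and 31.6 ± 0.891 CPM on KD (SD, n = 4 each).

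Crym (ENSMUSG00000030905.5, chromosome 7, 120186380 to 120202111, minus strand), which encodes mu-crystallin, a cytosolic protein that binds T3, was practically unread. The AL libraries held 1, 0, 4 and 2 reads, the DR libraries 0, 2, 2 and 2 and the KD libraries 2, 2, 5 and 2, 24 reads in all. With 2 libraries at 0 and a mean of 0.056 CPM it failed the filter, and at this depth no difference between diets could be seen. In the library with fewest reads, a count of 0 would allow up to 0.0946 CPM (3 counts, counting error only).

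Of the plasma carriers of the hormone, Serpina7 gave 2 reads in all, and the reads of Ttr and Alb were scattered. Ttr, which encodes transthyretin, made in the brain by the choroid plexus, was at 0.468, 0.361, 1.43 and 0.761 CPM on AL, 0.817, 0.655, 0.805 and 0.77 CPM on DR and 7.95, 0.371, 2.13 and 3.19 CPM on KD. It was called higher on KD than on DR (log2 fold change 2.16, edgeR adjusted p = 0.0332) although the diets overlapped. The call was lost without any 1 of the 8 mice except KD 2 (adjusted p 0.051 to 0.134) and with DESeq2 (0.0632), and without KD 1 the log2 fold change was 1.32. The 7 choroid plexus markers, which include Ttr, summed to 23.4 to 24.8 CPM on AL, 20.2 to 26.7 CPM on DR and 19.6 to 27.7 CPM on KD, with 2, 3 and 3 of them under 0.1 CPM on average. Most of each sum was Otx2 (11.5 to 13.6 CPM on average) and Clic6 (7.46 to 8.56 CPM), so the sum says little about the other markers. The part of choroid plexus tissue in the Ttr values was not tested. Alb, which encodes serum albumin, a liver product, ranged from 0 to 357 reads, with 4 libraries at 0 and 6 over 100, spread over all diets, and was not called.

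The receptor genes differed far more from each other than between diets. Thra (ENSMUSG00000058756.13, chromosome 11, 98740638 to 98769006, plus strand) encodes the receptor form that prevails in neurons, as well as a splice form that does not bind T3, and the count per gene does not separate them. It was at 318, 326, 352 and 306 CPM on AL, 313, 355, 363 and 337 CPM on DR and 303, 338, 308 and 300 CPM on KD, and the diets overlapped throughout. Its log2 fold changes were 0.07 (95% interval -0.05 to 0.19) in DR against AL, -0.06 (-0.16 to 0.05) in KD against AL and -0.13 (-0.24 to -0.02) in KD against DR, with edgeR adjusted p of 0.542, 0.994 and 0.181.

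A stretch of 263 bases of the last exon of Thra (chromosome 11, 98768157 to 98768419), coding sequence of the longer Thra-201 transcript and 5.70% of the exon length of Thra, overlaps the last exon of Nr1d1, the gene of the clock repressor REV-ERB alpha on the opposite strand. The library kit does not keep strand, so reads there cannot be assigned to either gene with certainty. Nr1d1 was at 133 ± 20.9 CPM on AL, 97.0 ± 26.6 CPM on DR and 105 ± 17.6 CPM on KD (SD, n = 4 each), and its log2 fold change of -0.45 on DR was not called (edgeR adjusted p = 0.108). The paper, by its own edgeR calls between AL and DR, counts Nr1d1 among the genes lower on DR. In the same way Dio2 shares 100 bases of its exon 1, 1.72% of its exon length, with the antisense gene Gm26512, which was at 1.45 to 1.65 CPM on average.

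Thrb (ENSMUSG00000021779.17, chromosome 14, 17660261 to 18038090, plus strand) encodes the receptor that among other roles serves feedback in the pituitary and hearing. It was at 10.8, 11.1, 12.3 and 10.1 CPM on AL, 11.2, 11.8, 9.55 and 9.95 CPM on DR and 11.9, 10.8, 12.1 and 11.7 CPM on KD, again with overlap between all diets. Its log2 fold changes were -0.06 (95% interval -0.25 to 0.13), 0.07 (-0.09 to 0.23) and 0.13 (-0.05 to 0.30), with edgeR adjusted p of 0.785, 0.994 and 0.443. Thrb was the shallowest of the tested members, with a counting error of 4.81% to 5.14% of its mean, near the lower end of its coefficient of variation between mice of 4.73% to 10.1%. For the other 4 tested members counting error was at most 2.88%, below a spread between mice of 3.54% or more.

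Per kilobase of exon, Thra stood far above Thrb in all 12 libraries. The log2 ratio was 5.56 ± 0.031 on AL, 5.69 ± 0.197 on DR and 5.43 ± 0.144 on KD (SD, n = 4 each). KD was 0.26 below DR (exact permutation p = 0.0857, 0.154 adjusted over the 9 tests), 0.13 below AL (exact permutation p = 0.143) and DR was 0.13 above AL (exact permutation p = 0.343). The last difference was 0.05 without DR 3 and 0.20 without DR 1. KD 2, at 5.65, lay above the other 3 at 5.36 to 5.37. Without it the difference of KD from AL was -0.20 (exact permutation p = 0.0286, the smallest possible, unadjusted). Of the 8 omissions only this 1 was under 0.05, with p up to 0.286 in the rest. KD 2 was singled out by the same ratio, so no conclusion is drawn from that p.

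Among the retinoid X receptors, the partners of the thyroid hormone receptors, Rxra was called lower on KD than on DR. It was at 25.3, 24.9, 24.3 and 21.5 CPM on AL, 25.8, 21.5, 26.3 and 23.1 CPM on DR and 20.5, 19.6, 19.2 and 20.9 CPM on KD, with all 4 KD mice below every mouse of the other diets. The log2 fold change of KD against DR was -0.27 (SE 0.07, edgeR adjusted p = 0.0329), and that of KD against AL, -0.26, was not called (adjusted p = 0.694). Leaving out 1 mouse ended the call in 6 of 8 cases, all except DR 2 and DR 4, with adjusted p of 0.0528 to 0.107. Rxrb was at 51.5 to 56.1 CPM in all libraries with no call, and Rxrg had 4 to 10 reads per library and was not tested.

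The corepressors and coactivators that the receptors recruit gave no call. Of 13 genes, among them Ncor1, Hdac3, Ncoa1, Crebbp and Ppargc1a, 0 rose and 0 fell in each comparison, with median log2 fold changes of 0.0060, -0.02 and -0.02. The log2 fold changes on DR ran from -0.09 for Ncor1 to 0.08 for Hdac3.

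**Figure D3:**
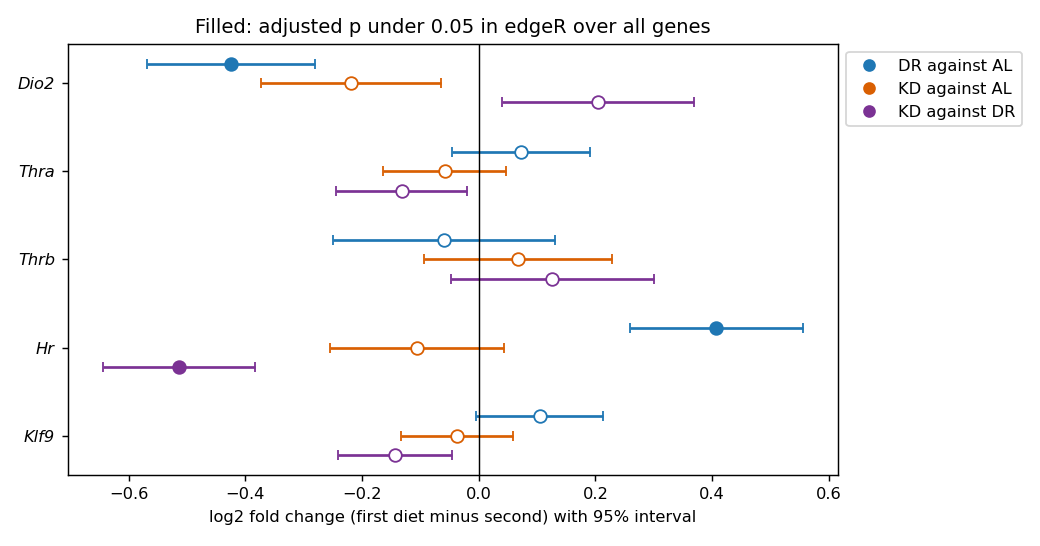
Log2 fold change (horizontal) of the 5 tested genes (vertical) in the 3 comparisons of diets, with 95% intervals from edgeR; filled points have an adjusted p under 0.05. Filled points are those of Dio2 (-0.42) and Hr (0.41) in DR against AL and of Hr (-0.51) in KD against DR.

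Hr (ENSMUSG00000022096.14, chromosome 14, 70552212 to 70573548, plus strand) encodes Hairless, a nuclear corepressor of the KDM3 histone demethylase family that is induced by T3 in the cerebellum. It was at 155, 161, 187 and 146 CPM on AL and at 205, 203, 238 and 215 CPM on DR, so that the lowest DR mouse lay above the highest AL mouse. The mean went from 162 ± 17.3 to 215 ± 16.2 CPM (SD, n = 4 each). Hr thus rose by 32.6%, or 0.41 on the log2 scale (SE 0.07, 95% interval 0.26 to 0.56, edgeR adjusted p = 0.0072). The direction was opposite to that of Dio2.

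On KD Hr was at 146, 167, 137 and 152 CPM, within and below the range of the AL mice. The mean of 151 ± 12.6 CPM (SD, n = 4) gave a log2 fold change of -0.11 against AL (95% interval -0.25 to 0.04, edgeR adjusted p = 0.994). Against DR the log2 fold change was -0.51 (SE 0.06, 95% interval -0.64 to -0.38, edgeR adjusted p = 0.000237) or 0.70 of the DR level, with no overlap between the diets. The Hr calls in DR against AL and KD against DR were kept without any 1 of the 8 mice.

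Klf9 (ENSMUSG00000033863.1, chromosome 19, 23141226 to 23166911, plus strand) encodes a zinc finger repressor that T3 induces in neurons and oligodendrocytes and that glucocorticoids induce as well. It was at 197, 223, 216 and 203 CPM on AL, 212, 239, 222 and 230 CPM on DR and 215, 203, 199 and 199 CPM on KD. The order of the means followed that of Hr, but the diets overlapped. Log2 fold changes were 0.10 (95% interval -0.0052 to 0.21) in DR against AL, -0.04 (-0.13 to 0.06) in KD against AL and -0.14 (-0.24 to -0.05) in KD against DR, with edgeR adjusted p of 0.303, 0.994 and 0.0891. Without DR 1 the last of these was -0.17 and was called (adjusted p = 0.0358). None of the 4 motifs was found in the 250 bases before the RefSeq start of Klf9. Of the 2 RefSeq promoters of Thrb 1 held a single half-site, and of the 2 of Rxra 1 held 2 half-sites, with none of the other motifs in either gene.

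In the wider families of both response genes, single members were called (background 3.06% in DR against AL and 4.94% in KD against DR). Of the 4 genes of the KDM3 family with Hr, only Hr was called on DR, and Hr and Kdm3a, a histone demethylase gene, were lower on KD than on DR; Kdm3a was at 59.2, 58.1, 60.8 and 56.1 CPM on DR and 52.5, 49.2, 46.7 and 49.4 CPM on KD (log2 fold change -0.24, edgeR adjusted p = 0.00731). Of 15 KLF genes tested, 1 rose on DR and 0 fell, and 1 was higher and 2 lower on KD than on DR, with medians of 0.10 and -0.03. Klf6 rose on DR (log2 fold change 0.34, edgeR adjusted p = 0.0391), a call lost without AL 1, AL 4, DR 1, DR 2 or DR 3 (adjusted p 0.0576 to 0.127), and it was lower on KD than on DR (-0.49, adjusted p = 0.00168). Klf15 was lower on KD than on DR (-0.47, adjusted p = 0.00482), and Klf10 was higher (0.52, adjusted p = 0.00249). Klf10 stood opposite to Klf6 and Klf15 in that comparison. In DR against AL the log2 fold change of Klf10, -0.35, was not called (adjusted p = 0.0778), but it was called lower in 4 of 7 alternatives (DESeq2, edgeR's exact test, 1 fit over all libraries and no filter on low counts, adjusted p 0.00966 to 0.0426) and without AL 3 or DR 2 (0.0281 and 0.0475). The fit with no filter carries a limit given at the end.

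Few of the further T3 response genes were called. Of 13 genes known to respond to T3 in the developing cerebellum, Hr and Klf9 included, 1 rose and 0 fell on DR (background 3.06% called), 0 were called in KD against AL, and 1 was higher and 1 lower on KD than on DR (background 4.94%). On DR 9 of the 13 had negative log2 fold changes (median -0.09) and in KD against DR 11 of 13 had positive ones (median 0.08), where 51% and 49.2% of all genes tested had positive log2 fold changes in these comparisons. Hr was the gene that rose on DR and the one that was lower on KD than on DR.

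Mag, which encodes a glycoprotein of myelin, was at 69.7, 65.9, 79.0 and 72.0 CPM on AL, 56.4, 59.0, 64.3 and 68.5 CPM on DR and 73.1, 69.9, 74.4 and 76.5 CPM on KD. All KD mice were above all DR mice, whereas AL overlapped with both. The log2 fold change of KD against DR was 0.24 (edgeR adjusted p = 0.0211), a call lost without DR 1, DR 2, KD 1, KD 3 or KD 4 (adjusted p 0.051 to 0.0704). On DR it stood at -0.21 against AL (adjusted p = 0.111). Mag is also 1 of 5 oligodendrocyte markers, of which 0 were called on DR and 1, Mag itself, on KD against DR (background 4.94%), with summed levels of 1397 to 1825 CPM on AL, 1407 to 1793 CPM on DR and 1608 to 1705 CPM on KD. The part of these cells in the values of Mag was not tested. The Purkinje genes of the list were not called, although DR and AL did not overlap for Itpr1, Calb1 and Rora (background 10.9%). On DR the log2 fold changes were -0.22 for Itpr1 (adjusted p = 0.0869), -0.15 for Calb1 (0.0796), -0.14 for Rora (0.139) and -0.04 for Pcp2 (0.789). The 6 Purkinje cell markers summed to 2268 to 2440 CPM on AL and 1966 to 2242 CPM on DR. All 6 had negative log2 fold changes on DR and 1, Car8, was called lower (-0.25, edgeR adjusted p = 0.0327, background 1.74% lower). The paper counts Itpr1 and Car8 among the genes lower on DR.

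Of the T3 response genes of other tissues, 2 of 4 tested fell on DR (background 1.74% lower) and both were higher on KD than on DR (background 2.43% higher). Me1, which encodes the cytosolic malic enzyme that supplies NADPH for fatty acid synthesis, was at 39.3, 40.4, 38.7 and 37.5 CPM on AL, 28.8, 30.4, 30.6 and 29.6 CPM on DR and 36.7, 34.2, 36.0 and 38.3 CPM on KD. It fell on DR by 0.38 on the log2 scale (edgeR adjusted p = 0.00107) and was 0.28 higher on KD than on DR (adjusted p = 0.00525), with no overlap in either comparison. Atp2a2, the calcium pump gene of the endoplasmic reticulum, fell by 0.20 on the log2 scale on DR (adjusted p = 0.032) and was 0.16 higher on KD than on DR (adjusted p = 0.0455). Its call on DR was lost without AL 1, AL 2, AL 4, DR 2 or DR 3 (adjusted p 0.0549 to 0.104), and its call in KD against DR was lost without any 1 mouse except DR 4 (adjusted p 0.0651 to 0.129) and with scaling by library size (0.0549).

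Leaving aside the KLF and KDM3 families, the lists so far held 51 genes that are not members, of which 47 were tested. On DR 1 of them rose and 2 fell, together 6.38% against 3.06% of all genes, 0 were called in KD against AL, and 4 were higher and 1 lower on KD than on DR, together 10.6% against 4.94%. The median log2 fold changes were -0.03, -0.0053 and 0.03. The lists were chosen with earlier results of these data known, so these shares describe the lists and test nothing. Scaling by library size alone moved the split of calls over all genes. In DR against AL 43.2% of the calls were higher, against 57.0% with that scaling, and in KD against DR 49.2% were, against 37.9%.

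**Figure D4:**
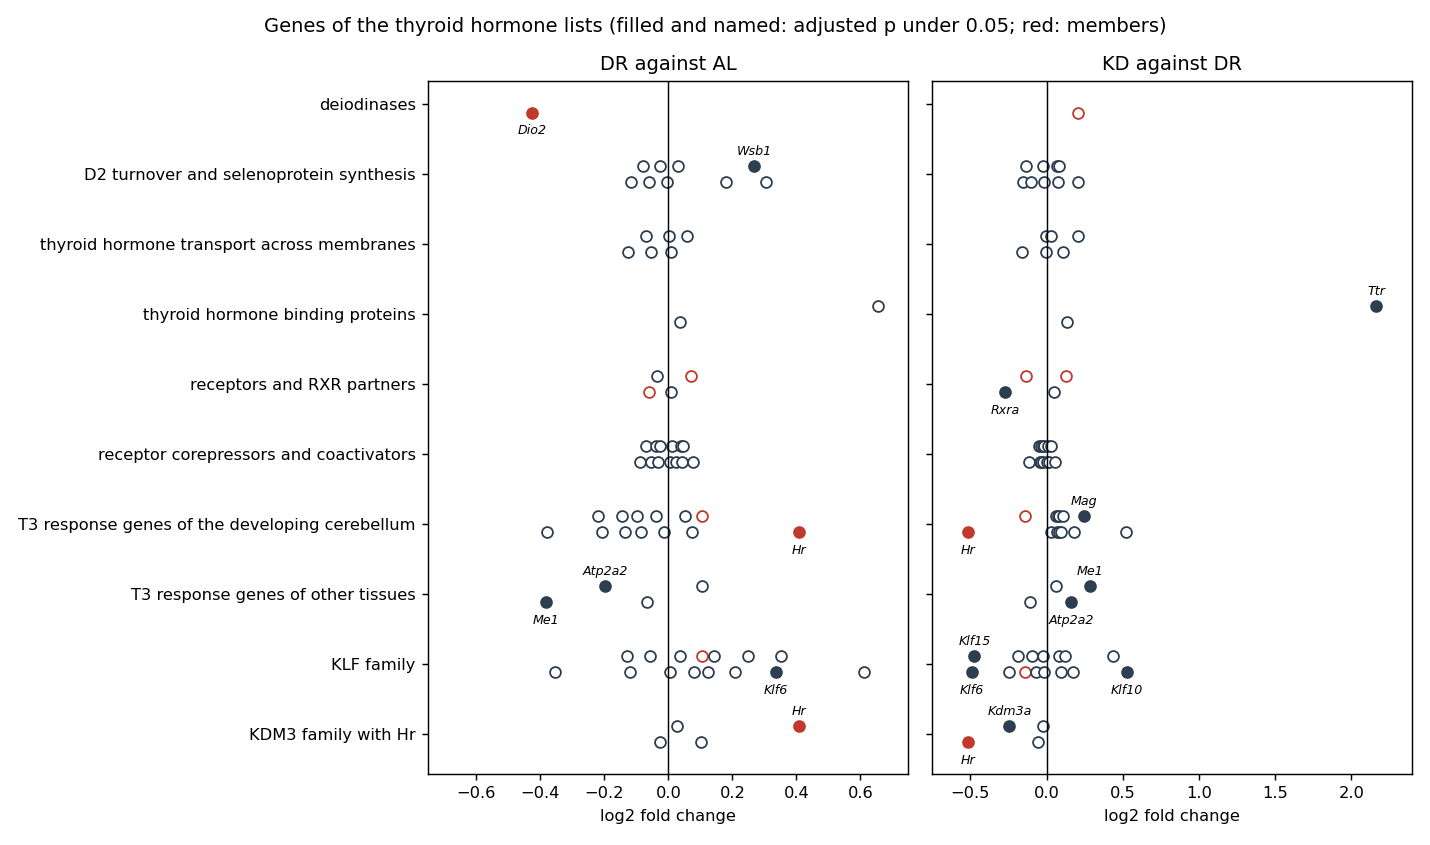
Log2 fold changes (horizontal) of the tested genes of each thyroid hormone list (rows) in DR against AL and KD against DR. The KLF and KDM3 families are drawn as well. Filled, named points have an adjusted p under 0.05 in edgeR and red points are members. Most points of the transporters and coregulators lie near 0, while Hr is filled on opposite sides of 0 in the 2 panels, at 0.41 and -0.51.

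Klf9 is shared with the genes that glucocorticoids induce, and of the 13 glucocorticoid response and receptor genes 4 rose and 1 fell on DR (background 3.06% called), while 1 was higher and 9 lower on KD than on DR (background 4.94%). The gene that fell on DR was the receptor gene Nr3c1 (log2 fold change -0.27, edgeR adjusted p = 0.00821). Per1 (-0.26, adjusted p = 0.0922) and Tsc22d3 (-0.06, 0.82) also had negative log2 fold changes on DR, and the other 10 had positive ones. In KD against AL 0 were called, but 11 of the 13 had negative log2 fold changes (median -0.21). Fkbp5, a chaperone of the glucocorticoid receptor, stood at a log2 fold change of 0.68 (edgeR adjusted p = 0.0218) in DR against AL and at -1.48 (adjusted p = 1.98e-05) in KD against DR. In KD against AL it stood at -0.80 with no overlap, which was not called (adjusted p = 0.224) except by edgeR's exact test (0.00122), with no filter on low counts (4.74e-19) and without AL 4 (0.00797). No conclusion is drawn from the p-value of the fit with no filter, for the reason given at the end. Cdkn1a stood at 0.50 (adjusted p = 0.0295) and -0.97 (adjusted p = 1.98e-05), Errfi1 at 0.35 (0.023) and -0.56 (0.000196) and Sgk1 at 0.34 (0.116) and -0.63 (0.00021). In DR against AL these calls were lost without AL 1 or DR 3 for Fkbp5 (adjusted p 0.0645 to 0.0691), without AL 1, AL 4 or DR 3 for Errfi1 (0.0732 to 0.0819) and without AL 1, DR 1, DR 3 or DR 4 for Cdkn1a (0.0638 to 0.0854). The Hr, Klf9 and Klf6 values of the same mice stand beside these, and a common cause was not tested.

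Between the members, levels can be compared per kilobase of exon. In order of the mean over 12 libraries, Thra was at 70.8, Klf9 at 65.3, Hr at 25.4, Dio2 at 6.79, Thrb at 1.501 and Crym at 0.0166 CPM per kb. Each gene exceeded the next in 12 of 12 libraries. The ranges of Thra (65.0 to 78.8 CPM per kb) and Klf9 (60.3 to 73.1 CPM per kb) overlapped across libraries although Thra was the higher of the pair within each of them, whereas the ranges of the other neighbours did not overlap. Slco1c1 lay close to Dio2 on this scale, and Rxra and Rxrb lay between the receptor genes Thrb and Thra.

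**Figure D5:**
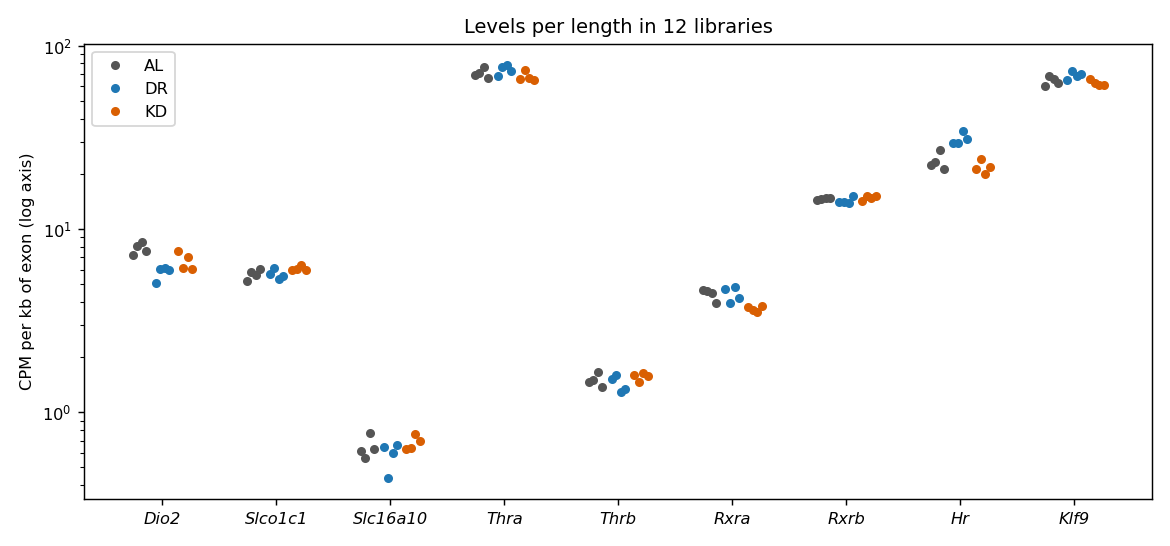
CPM per kb of exon (vertical, log axis) of 9 genes of hormone activation, transport, reception and response in 12 libraries, coloured by diet. Genes lie far apart on this axis and diets close together: Thra is at 65.0 to 78.8 and Thrb at 1.29 to 1.66 CPM per kb.

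Across the 12 libraries the members did not vary as 1 block. The log2 CPM of Hr correlated with that of Thra at r = 0.78 and with Klf9 at 0.70, and Dio2 with Hr at -0.52. With each diet centred on its mean, Thra and Hr stayed at 0.78, Hr and Klf9 dropped to 0.21, Dio2 and Hr went to 0.12 and Dio2 and Klf9 rose from -0.12 to 0.70. These are descriptions over 12 libraries, with no test. Depth differed between libraries, and the AL and DR mice were dissected over a span of the early dark period. The part of either in these correlations was not tested.

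Of the 11698 genes that averaged 5 CPM or more, those most like Dio2 over the 12 libraries were the integrin gene Itgb8 (r = 0.96, 0.89 within diets), the NMDA receptor gene Grin2b (0.95, 0.88 within diets) and AI593442 (0.94, 0.83 within diets). On DR the log2 fold change of Grin2b was -0.39 (edgeR adjusted p = 0.00208) and that of Itgb8 -0.22 (0.0453). Most like Hr were Cln6, Nipal3 and Cnnm3, at 0.97, 0.97 and 0.96, and most like Klf9 were Msto1, Tob2 and Cnksr3, at 0.93, 0.92 and 0.92. Thra was closest to Tspoap1, Unc5a and Rapgef4os3 (0.95, 0.95 and 0.94), and Thrb to Arl6ip6, Ss18l1 and Cask (0.94, 0.86 and 0.80). The closest genes were thus different ones for each member.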

How the data were processed

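Poly(A) RNA was sequenced from the cerebellar cortex of 12 mice, 4 each on AL, DR and KD. The authors removed adaptors with Trimmomatic 0.39, aligned reads with STAR 2.7.0f to GRCm38.p6 with a GENCODE annotation and counted reads per gene with featureCounts of Subread 1.6.4, and they deposited these counts without normalization. Their notes also name edgeR 3.32.1. The strand and overlap settings of the counting are not given in the sources used here. Groups came from the labels, and replicate numbers only name mice.

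From the deposited counts, low genes were dropped by filterByExpr (at least 10 reads in enough libraries and 15 in all) and library sizes were scaled by TMM (factors 0.991 to 1.02). Each pair of diets was then fitted on its own 8 libraries in R 4.3.3 (edgeR 4.0.16, glmQLFit and glmQLFTest), and p-values were adjusted after Benjamini and Hochberg with a threshold of 0.05. CPM used TMM-scaled library sizes, and log2 CPM a prior count of 2. Levels between genes were divided by the exon length of the table. For ratios, exact permutation tests (two-sided) used the 70 divisions of 8 mice, 9 tests in all, whose smallest p is 0.0286. Intervals and floors of 3 counts are at 95% and, for floors, cover counting error only. Symbols matched 54723 of 54752 identifiers from a later GENCODE release, and promoters and starts are from RefSeq. RefSeq promoters were found for Dio2, Klf9 and Thrb and were not used here for Thra, Hr and Crym.

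The members and lists were chosen with earlier results of these data known. Some listed genes are not reported here and were left out of the list counts, medians and marker sums, though not of the fits. Named were the members, up to 4 called genes per list by lowest adjusted p, genes whose exons overlap a member and the 3 genes most correlated with each member. Genes given beside these (such as Usp33, Itpr1, Dio1, Alb and the astrocyte markers) were named after their values were seen. On simulated counts for DR against AL with 18812 genes, 84 of 100 genes changed by 0.4 on the log2 scale and 100 of 100 changed by 1 were recovered, with 9 false calls. The simulated spread followed the trend with expression level, with no spread particular to a gene or a mouse. Only genes above a minimum level were changed, so recovery in the real counts can be lower. Alternatives were other scaling, filters and prior counts, DESeq2 1.42.0, edgeR's exact test, 1 fit over all libraries, and leaving out each mouse in turn.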

Additional observations from a re-analysis of the deposited data

Results flagged for a closer look

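Of 63 groups of 4 mice examined with Dixon's test for a single outlying value, 3 were singled out, and chance alone picks about 1 in 20. DR 1 had 29.7 CPM of Dio2, against 34.9 to 35.8 CPM in the other DR mice. KD 1 had 36.7 CPM of Errfi1, against 32.5 to 32.9 CPM in the other KD mice. KD 2 had a log2 ratio of Thra over Thrb per kb of 5.65, against 5.36 to 5.37 in the other KD mice.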

How the results depend on the processing

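The calls of Dio2 and Hr in DR against AL and of Hr in KD against DR held in all 7 alternatives and without any 1 of 8 mice (log2 fold changes of -0.46 to -0.36, 0.35 to 0.48 and -0.57 to -0.46 with 1 mouse left out). Thra and Thrb were called in none. Among genes called, the edgeR exact test gave 983 (main 583) in DR against AL and 18 (main 0) in KD against AL, DESeq2 gave 1014 and 10, and no filter on low counts gave 1258, 118 and, in KD against DR, 1503 (main 942). With 1 mouse left out these counts ran from 235 (without DR 3) to 712 in DR against AL, from 0 to 6 (without AL 1) in KD against AL and from 467 (without KD 3) to 946 in KD against DR. Without the filter Dio2 was called in KD against AL (-0.22, edgeR adjusted p = 0.0374) and KD against DR (0.21, adjusted p = 0.0208). That fit also called Ttr in KD against AL (edgeR adjusted p = 1.95e-19, main 0.956), although KD (0.371 to 7.95 CPM) overlapped AL (0.361 to 1.43 CPM). Its p-values thus did not follow the spread between mice, and no conclusion is drawn from them. With library size scaling Klf9 was called in KD against DR (-0.16, edgeR adjusted p = 0.0467, and -0.17 to -0.12 with 1 mouse left out). With 1 mouse left out, the relative level of Dio2 ran from -0.26 to -0.17 in KD against AL and the ratio of Thra to Thrb from -0.20 to -0.10. In KD against DR the relative level of Dio2 turned to 0.0807 against Slc1a3 alone and ran from -0.10 to 0.0340 with 1 mouse left out. Signs also turned, with 1 mouse left out and no call, for Ttr (-0.20 to 0.55), Rxra (-0.0389 to 0.0605) and Klf15 (-0.0294 to 0.11) in DR against AL and for Mag (-0.0022 to 0.0896) in KD against AL. The cause of these shifts was not tested. Over the other named genes, 552 values kept direction and side of the threshold, 47 lost a call, 19 gained one and 8 changed sign. No paired analysis was possible because the labels give the groups no shared replicate numbers. Depth limits Crym, Dio1, Dio3, Rxrg and Serpina7, for which no diet effect was detectable.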
